A study of Ovis aries with 32 samples.

Results

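The genes described are DUSP1, DUSP4, MAPK6 and MAPK8, which encode MAP kinases and phosphatases that act on MAP kinases. They were chosen by name and are 4 of the 14364 genes and unnamed probes measured on a sheep microarray, each read by 1 probe: A_70_P037211 for DUSP1, A_70_P008856 for DUSP4, A_70_P023066 for MAPK6 and A_70_P053976 for MAPK8. The array files give these probes no symbol. Each was named by finding the probe whose group means, with and without phenylephrine, equalled those of a gene in the authors' list of altered genes. The match was to within 0.1%, except in the premature fetus, where the list is rounded and the match was to within that coarser rounding. DUSP1 was named through the lists for 3 ages (premature, near-term and adult), and DUSP4, MAPK6 and MAPK8 through those for 2 ages (premature and newborn). A gene is on such a list only where it was altered, so the values at those ages were used in the naming, and effects and comparisons that rest on them are given as descriptions with no test. The ages left for a test are those at which the list does not hold the gene, so a test there leaned towards not passing.

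MAP kinases end a relay in which a MAP kinase kinase kinase phosphorylates a MAP kinase kinase, which in turn phosphorylates a MAP kinase on a threonine and a tyrosine of its activation loop. Dual specificity phosphatases of the MAP kinase phosphatase family remove these phosphates and so switch the kinase off, and several of them are themselves transcribed when the relay is active. In arterial smooth muscle, alpha1-adrenergic receptors (Alpha1AR) couple to calcium release and contraction and also to MAP kinase signalling.

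The study asked how activation of Alpha1AR alters RNA in the middle cerebral artery (MCA) of sheep at 4 ages. Segments of the artery were left untreated or were exposed for 30 minutes to 10 µM phenylephrine (PHE), an agonist of Alpha1AR, and their RNA was run on Agilent arrays in a single colour. The 8 groups were premature fetus, near-term fetus, newborn lamb and adult sheep, each untreated and with PHE, with 4 arrays a group and 32 in all. The labels give 96 and 146 days of gestation for the fetuses, 12 hours for the lamb and 2 years for the adult, while the methods give 96 and 140 days, 5 days, and 18 to 24 months. The labels do not name the animal behind an array, so a p-value here measures the spread among these arrays. Whole arterial segments were measured, in which fewer cells of a type and less RNA per cell cannot be told apart, and the arrays read RNA, not phosphorylation.

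The premature and newborn arrays were scanned on 1 day and the near-term and adult arrays on another, so an age of one pair cannot be told apart from the scan day when it is set against an age of the other. All 8 premature arrays shared 1 slide and all 8 newborn arrays another. The near-term and adult arrays were spread over 3 slides, on which all 4 near-term PHE arrays sat beside only 1 untreated near-term array. The 75th percentile of intensity, used here as the measure of an array's brightness, ran from 638 to 1710 on the 24 premature, newborn and adult arrays. The near-term arrays were uneven: untreated replicate 4 read 124, PHE replicate 1 read 369, untreated replicate 3 read 391, and the brightest, PHE replicate 4, read 1670. The median within-group SD over genes was 0.523 log2 units in the near-term fetus, with 0.189 for premature, 0.217 for newborn and 0.308 for adult arteries. DUSP1, MAPK6 and MAPK8 were well above background on 32 of 32 arrays and DUSP4 on 31 of 32, the exception being newborn untreated replicate 4.

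**Figure D1:**
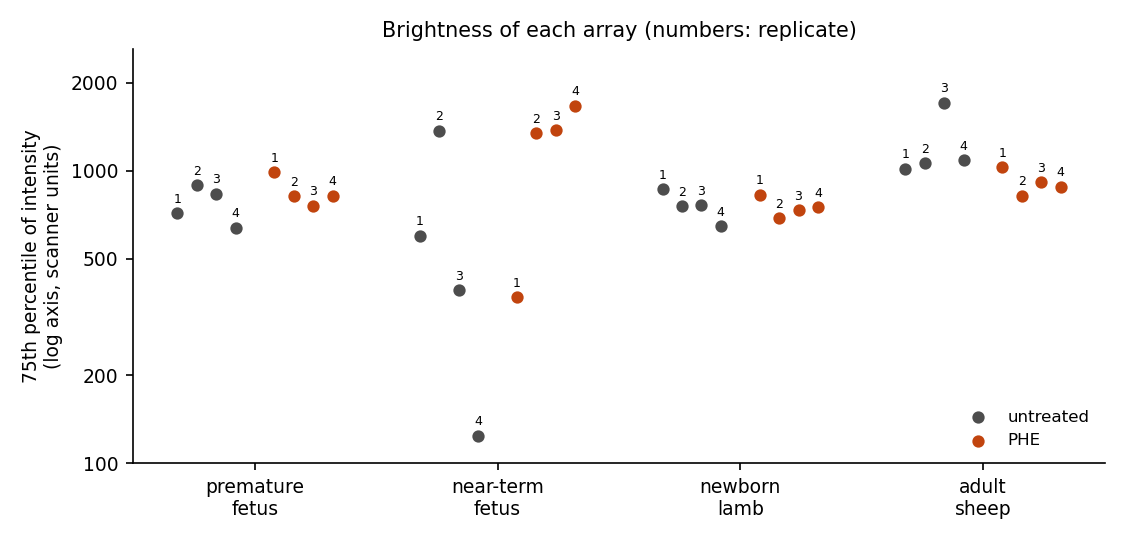
Brightness of each array, as the 75th percentile of intensity in scanner units on a log axis, by age; grey points are untreated arrays, orange points are arrays with PHE, and numbers are replicates. Near-term untreated replicate 4, at 124, and near-term PHE replicate 1, at 369, lie lowest.

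The values below are log2 levels, log2 of the intensity of a gene over its array's 75th percentile, so that 0 is a gene as bright as that percentile. A level compares 1 gene across arrays and not 1 gene with another. Effects of PHE are differences of group means with their standard error (SE) and 95% interval from limma, whose spread is shared over the 32 arrays. From near-term arrays alone the SE of the near-term effect was 0.68 for DUSP1, 0.47 for DUSP4, 0.27 for MAPK6 and 0.32 for MAPK8, so the near-term intervals below are narrow for all but DUSP4, and from adult arrays alone that of DUSP4 was 0.63. A gene was called where its p, adjusted over all genes tested in the comparison, was under 0.05 and its fold was at least 1.5.

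DUSP1, a nuclear phosphatase encoded by an immediate early gene, was higher after PHE in both fetuses and in the adult, by 4.33-fold, 10.1-fold and 4.19-fold in the premature, near-term and adult arteries, with 4 arrays a group. In the newborn lamb, DUSP1 was already high in untreated arteries and its mean was no higher with PHE. In the premature fetus, DUSP1 read 0.55, 0.95, -0.04 and 0.23 on untreated arrays 1 to 4 and 2.62, 2.09, 2.71 and 2.72 on PHE arrays 1 to 4. All 4 PHE arrays lay above the untreated arrays, with PHE array 2 the lowest of them. In the near-term fetus, the untreated arrays read 0.55, 0.65, 0.74 and -1.20 and the PHE arrays 1.91, 3.0, 4.52 and 4.62. The groups stayed apart, but the dim untreated array 4 was far below the other untreated arrays and the dim PHE array 1 was the lowest with PHE. In the newborn lamb, DUSP1 read 3.21, 1.67, 2.83 and 2.96 untreated and 2.14, 1.99, 2.92 and 2.96 with PHE. These groups overlapped throughout, with untreated array 1 the highest of the 8 and untreated array 2 the lowest. In the adult, the untreated arrays read 1.68, 0.94, 1.65 and 1.15 and the PHE arrays 3.28, 4.39, 3.23 and 2.79, without overlap and with PHE array 2 the highest.

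The PHE effect on DUSP1 was 2.11 (SE 0.49, 95% interval 1.11 to 3.11) in the premature fetus, 3.33 (SE 0.49, 2.33 to 4.33) in the near-term fetus and 2.07 (SE 0.48, 1.07 to 3.06) in the adult, as a description. In the newborn lamb, where the effect could be tested, it was -0.17 (SE 0.49, -1.17 to 0.83) and did not pass (adjusted p = 0.902, exact two-sided permutation p = 0.829). That interval leaves room for a difference of either sign. Among all genes tested with PHE in the newborn lamb, 11.3% were called, 5.63% higher and 5.66% lower. Ordered by group mean, DUSP1 stood at 3.51 ± 1.30 (SD, n = 4) in the near-term fetus with PHE and 3.42 ± 0.68 in the adult with PHE, then at 2.67 ± 0.69 in the untreated newborn, 2.54 ± 0.30 in the premature fetus with PHE and 2.50 ± 0.51 in the newborn with PHE. Below them came the untreated adult at 1.36 ± 0.37, the untreated premature fetus at 0.42 ± 0.43 and the untreated near-term fetus at 0.18 ± 0.93. The gap in this order fell between the newborn with PHE and the untreated adult, which were scanned on different days. Every other pair of neighbours overlapped. The near-term effect rests on uneven arrays: it was 2.87 without the dim untreated replicate 4 and 4.72 against that array alone, the only untreated one on the slide of the PHE arrays, and the adult effect within the slide that held 4 PHE and 2 untreated arrays was 2.11.

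**Figure D2:**
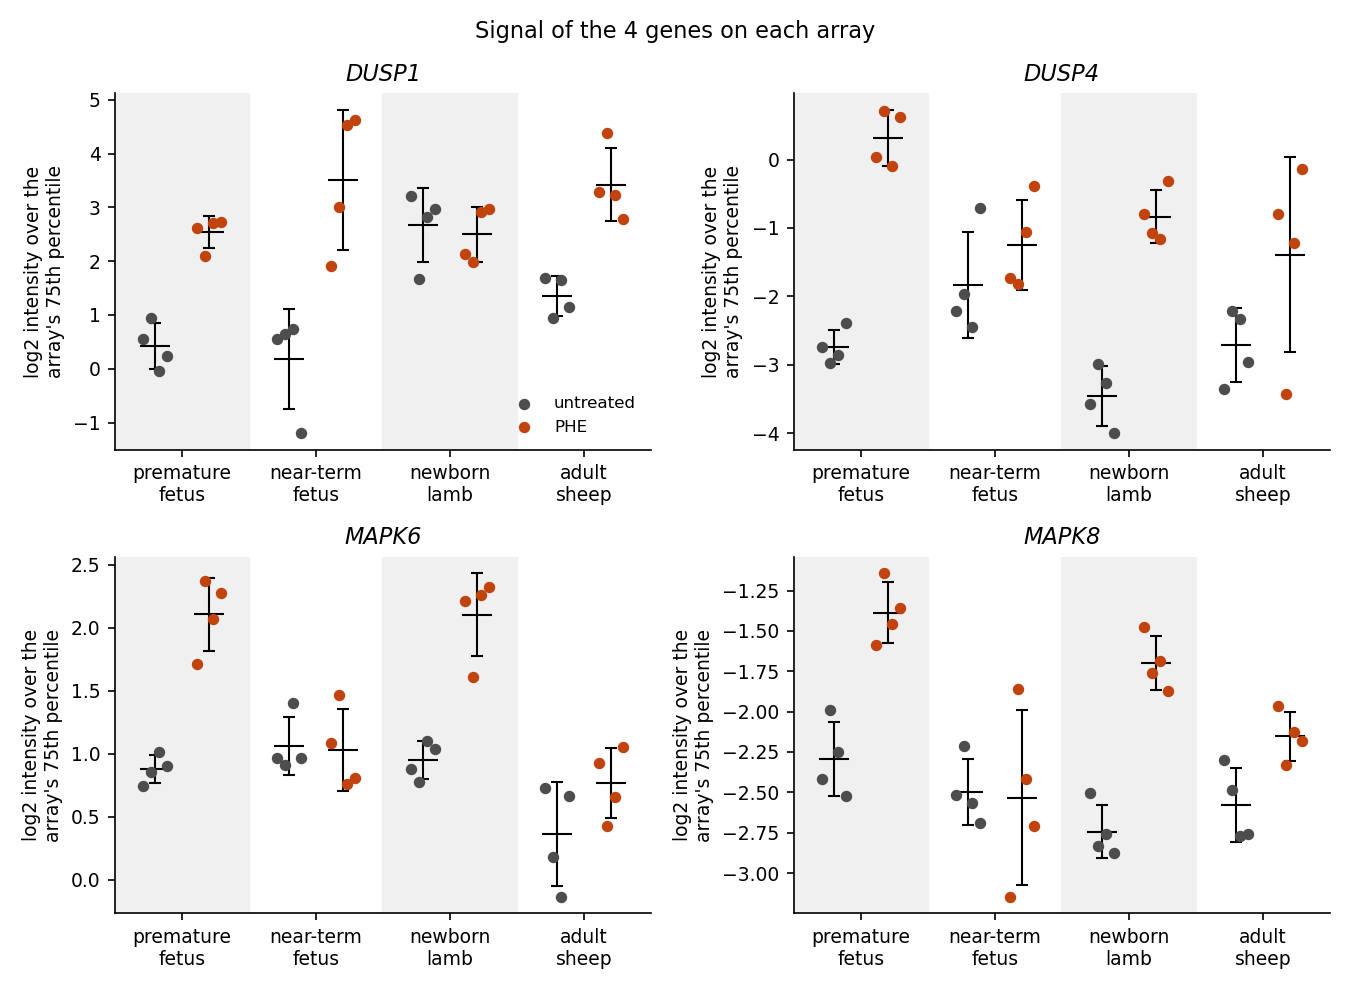
Log2 level of DUSP1, DUSP4, MAPK6 and MAPK8 on each of the 32 arrays, by age; grey points are untreated arrays, orange points are arrays with PHE, and bars show the mean and SD of 4 arrays. DUSP1 in the newborn lamb lies at 2.67 untreated and 2.50 with PHE, while DUSP4, MAPK6 and MAPK8 separate by treatment in the premature fetus and the newborn lamb.

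DUSP4, a nuclear phosphatase that dephosphorylates MAP kinases, was 8.34-fold higher with PHE in the premature fetus and 6.17-fold higher in the newborn lamb, with 4 arrays a group. In the near-term fetus and the adult, the mean was higher with PHE but did not pass the test. In the premature fetus, DUSP4 read -2.74, -2.98, -2.86 and -2.39 on untreated arrays 1 to 4 and 0.03, 0.71, -0.10 and 0.63 on PHE arrays 1 to 4. The PHE arrays lay far above the untreated arrays, which were close together. Near-term arteries gave DUSP4 readings of -2.22, -1.96, -2.45 and -0.71 untreated and -1.73, -1.81, -1.07 and -0.39 with PHE. These groups overlapped, since the dim untreated array 4 was higher than 3 of 4 PHE arrays. In the newborn lamb, DUSP4 read -3.58, -2.99, -3.26 and -4.01 untreated and -0.79, -1.07, -1.16 and -0.31 with PHE, without overlap. Untreated arrays 4 and 1 held the 2 lowest of the 32 readings of DUSP4, and array 4 was the reading not above background. In the adult, DUSP4 read -3.36, -2.21, -2.33 and -2.96 untreated and -0.79, -3.42, -1.21 and -0.14 with PHE. Adult PHE array 2 was the lowest of all 8 adult arrays, while the other 3 PHE arrays lay above every untreated one.

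The PHE effect on DUSP4 was 3.06 (SE 0.47, 95% interval 2.09 to 4.03) in the premature fetus and 2.63 (SE 0.47, 1.65 to 3.6) in the newborn lamb, given without a test. The tested effects were 0.58 (SE 0.47, -0.39 to 1.56) in the near-term fetus (adjusted p = 0.338, exact p = 0.257) and 1.32 (SE 0.47, 0.35 to 2.29) in the adult (adjusted p = 0.142, exact p = 0.171). Among all genes tested, 36.3% were called with PHE in near-term arteries, 17.4% higher and 18.8% lower, and 3.81% in the adult, 2.81% higher and 1.00% lower. The near-term share depends on the fit: with near-term arrays alone 273 genes were called, 88.6% of them higher. With the normexp background correction, which added an offset of 50 to each intensity, 4164 were called, 17.1% of them higher. The adult result turned on 1 array: without adult PHE replicate 2 the effect was 2.00 and passed (adjusted p = 0.000813), and with arrays weighted by their spread it was 1.55 and passed (adjusted p = 0.0118, with 0.0118 to 0.604 over the alternative settings). With background corrected by the normexp method, the premature effect was 1.93, the newborn effect 1.64 and the near-term effect -0.45. The near-term effect was -0.54 against the dim untreated replicate 4, the only one on the same slide, 0.96 without that array and 1.12 without both dim arrays (adjusted p = 0.0755), and the adult effect within a slide was 1.39. The group means ran from 0.32 ± 0.41 (SD, n = 4) in the premature fetus with PHE through -0.83 ± 0.38 in the newborn with PHE, -1.25 ± 0.66 in the near-term fetus with PHE and -1.39 ± 1.42 in the adult with PHE. The untreated groups followed at -1.83 ± 0.77 in the near-term fetus, -2.71 ± 0.54 in the adult, -2.74 ± 0.25 in the premature fetus and -3.46 ± 0.44 in the newborn. The first and last neighbours in this order, premature over newborn with PHE and premature over newborn untreated, did not overlap, and the others did.

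MAPK6, the atypical MAP kinase also called ERK3, whose activation loop lacks the tyrosine of the classical kinases, was 2.34-fold higher with PHE in the premature fetus and 2.22-fold higher in the newborn lamb, with 4 arrays a group. In the near-term fetus, levels with and without PHE were close together, and in the adult they were slightly higher with PHE without passing the test. Premature arteries gave MAPK6 readings of 0.75, 0.85, 1.02 and 0.90 on untreated arrays 1 to 4 and 1.72, 2.37, 2.07 and 2.28 on PHE arrays 1 to 4. The untreated arrays were tightly grouped and all 4 PHE arrays lay above them. Near-term arteries gave MAPK6 readings of 0.96, 0.91, 1.40 and 0.97 untreated and 1.09, 1.47, 0.76 and 0.80 with PHE. The groups overlapped, with untreated array 3 high among its group and PHE array 2 highest of the 8. In the newborn lamb, MAPK6 read 0.88, 0.78, 1.10 and 1.04 untreated and 2.21, 1.61, 2.26 and 2.33 with PHE, and in the adult 0.73, 0.18, -0.14 and 0.67 untreated and 0.93, 0.43, 0.66 and 1.05 with PHE. The newborn groups were apart, although PHE array 2 was well below the other PHE arrays, and the adult groups overlapped.

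The PHE effect on MAPK6 was 1.23 (SE 0.21, 95% interval 0.81 to 1.65) in the premature fetus and 1.15 (SE 0.21, 0.73 to 1.57) in the newborn lamb, as a description. The tested effects were -0.03 (SE 0.21, -0.45 to 0.39) in the near-term fetus (adjusted p = 0.916, exact p = 0.857) and 0.41 (SE 0.21, -0.02 to 0.83) in the adult (adjusted p = 0.384, exact p = 0.20), neither of which passed. In the adult, within the slide that held both treatments, the difference was 0.31. The near-term sign is not settled: it turned positive under quantile normalization (0.09) and under normexp correction of the background (0.32). In order of group mean, MAPK6 stood at 2.11 ± 0.29 (SD, n = 4) and 2.10 ± 0.33 in the premature fetus and newborn lamb with PHE. It then stood at 1.06 ± 0.23 and 1.03 ± 0.33 in the near-term fetus untreated and with PHE, 0.95 ± 0.15 in the untreated newborn, 0.88 ± 0.11 in the untreated premature fetus, 0.77 ± 0.28 in the adult with PHE and 0.36 ± 0.41 in the untreated adult. The only neighbours that did not overlap were the newborn with PHE and the untreated near-term fetus, which were scanned on different days.

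MAPK8, the stress-activated kinase JNK1 that phosphorylates the transcription factor JUN, was 1.88-fold higher with PHE in the premature fetus and 2.06-fold higher in the newborn lamb, with 4 arrays a group. Its near-term groups overlapped and its adult groups nearly separated. Premature arteries gave MAPK8 readings of -2.42, -1.99, -2.25 and -2.52 on untreated arrays 1 to 4 and -1.59, -1.14, -1.46 and -1.36 on PHE arrays 1 to 4, without overlap. Array 2 was the highest of the untreated group and of the PHE group alike. Near-term arteries gave MAPK8 readings of -2.52, -2.21, -2.57 and -2.69 untreated and -3.15, -1.86, -2.42 and -2.71 with PHE. The PHE arrays there spread to both sides of the untreated ones, with the dim PHE array 1 lowest and PHE array 2 highest. In the newborn lamb, MAPK8 read -2.51, -2.83, -2.76 and -2.88 untreated and -1.48, -1.76, -1.68 and -1.87 with PHE, and in the adult -2.30, -2.49, -2.77 and -2.76 untreated and -1.96, -2.33, -2.13 and -2.18 with PHE. The newborn groups were apart, and in the adult 3 of 4 PHE arrays lay above every untreated array.

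The PHE effect on MAPK8 was 0.91 (SE 0.19, 95% interval 0.51 to 1.31) in the premature fetus and 1.05 (SE 0.19, 0.65 to 1.44) in the newborn lamb, without a test. In the newborn, the 4 numbered pairs of arrays differed by 1.00 to 1.07, and in the premature fetus by 0.79 to 1.16. The tested effects were -0.04 (SE 0.19, -0.43 to 0.36) in the near-term fetus (adjusted p = 0.898, exact p = 0.914) and 0.43 (SE 0.19, 0.03 to 0.83) in the adult (adjusted p = 0.310, exact p = 0.0571), and neither passed. With normexp background correction MAPK8 fell by 1.05 in the near-term fetus and passed (adjusted p = 0.00281, with 0.00281 to 0.954 over the alternative settings), its premature effect was 0.19 and its newborn effect 0.73. MAPK8 had an intensity of 19.4 on the dim near-term untreated replicate 4, below the offset of 50 that normexp added. The part of that offset in the near-term fall was not tested. The near-term sign is not settled: it was positive with array weights (0.24), with slide as a block (0.16) and without both dim arrays (0.10). The slide value is against the dim untreated replicate 4 alone. The adult effect within the slide that held both treatments was 0.24. The group means were -1.39 ± 0.19 (SD, n = 4) in the premature fetus with PHE, -1.70 ± 0.17 in the newborn with PHE, -2.15 ± 0.15 in the adult with PHE and -2.30 ± 0.23 in the untreated premature fetus. Lower still were the near-term fetus at -2.50 ± 0.20 untreated and -2.53 ± 0.54 with PHE, the untreated adult at -2.58 ± 0.23 and the untreated newborn at -2.74 ± 0.17. Only the newborn and the adult with PHE were neighbours without overlap, and they too were scanned on different days.

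In the premature fetus, all 4 genes had PHE arrays wholly above the untreated arrays, in the newborn lamb DUSP4, MAPK6 and MAPK8 did, and in the near-term fetus and the adult DUSP1 did. Each of these separations is at an age through which the gene was named, so nothing is read from their number. With PHE, 17.6% of all genes tested were called in the premature fetus, 8.85% higher and 8.79% lower. At the ages left for a test, DUSP1 in the newborn and DUSP4, MAPK6 and MAPK8 in the near-term fetus and the adult, 0 of 7 tests passed in limma, beside 11.3%, 36.3% and 3.81% of all genes called in the newborn, the near-term fetus and the adult.

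**Figure D3:**
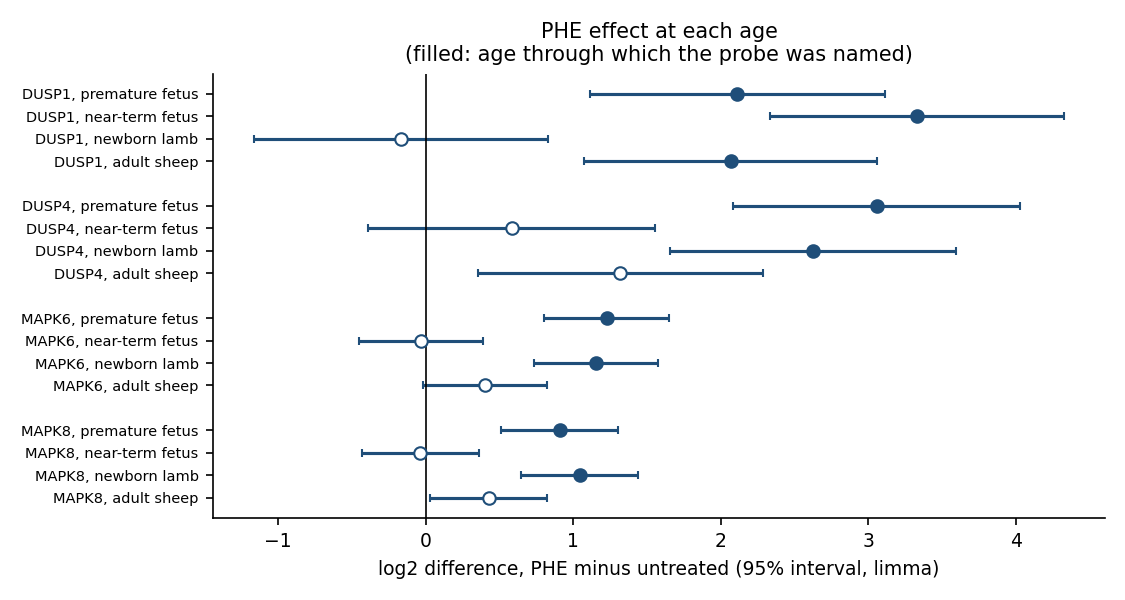
Log2 difference of PHE minus untreated for each gene and age, with the 95% interval from limma over 32 arrays; filled circles mark the ages through which the probe was named, and open circles the ages left for a test. DUSP1 in the newborn lamb lies at -0.17, and MAPK6 and MAPK8 in the near-term fetus lie at -0.03 and -0.04.

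Whether a gene responded differently at different ages was tested only between ages through which the probe was not named, and differences between naming ages are described. DUSP1 had the larger mean effect in the near-term fetus, where it was 1.26 above that in the adult (SE 0.69, 95% interval -0.15 to 2.68), while 12.2% of all genes tested were called in that comparison. The premature effect on DUSP1 minus the near-term effect was -1.22 (SE 0.69), and minus the adult effect it was 0.05 (SE 0.69). No comparison is given between the newborn lamb and the ages through which DUSP1 was named. The comparisons with the premature fetus cross the scan days, and 4.82% and 1.02% of all genes were called in them, in that order. The near-term minus adult difference was 1.80 without the dim near-term PHE replicate 1, 0.80 without the dim untreated replicate 4 and 1.34 without both. Within slides, where the near-term effect rests on that untreated array alone, it was 2.65 and the premature minus near-term difference -2.60.

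DUSP4, MAPK6 and MAPK8 had premature and newborn effects that differed by less than their SE. The premature minus newborn difference was 0.43 for DUSP4 (SE 0.67, 95% interval -0.94 to 1.81), 0.07 for MAPK6 (SE 0.29, -0.52 to 0.67) and -0.14 for MAPK8 (SE 0.27, -0.70 to 0.43), as a description. The MAPK8 difference was larger, at -0.54, with normexp background correction, and the MAPK6 difference turned to -0.034 with scaling to the median. Only 0.0201% of all genes were called in that comparison, and intervals of this width do not show that the effects are alike. The near-term effect minus the adult effect was -0.74 for DUSP4 (SE 0.67, adjusted p = 0.510), -0.44 for MAPK6 (SE 0.29, adjusted p = 0.341) and -0.46 for MAPK8 (SE 0.28, adjusted p = 0.277). None passed. The DUSP4 difference ran from -1.90 to -0.20 over the alternative settings and from -1.41 to -0.32 with 1 array left out without passing, and with normexp background correction the MAPK8 difference was -1.41 and passed (adjusted p = 0.0180, with 0.0180 to 0.883 over the alternative settings). Effects of DUSP4, MAPK6 and MAPK8 at the ages of naming were not tested against those at the other ages, since the naming and the scan day both separate these ages.

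In arteries that had seen no PHE, DUSP1 had the largest difference of the 4 genes between ages scanned on the same day. It was 4.75-fold higher in the newborn lamb than in the premature fetus, and 4 of 4 newborn arrays lay above every premature array. Over all 4 ages, an order that crosses the scan days, DUSP4 and MAPK8 had their lowest untreated mean in the newborn, and MAPK6 its lowest in the adult. Untreated levels were compared for the ages scanned on the same day, and only near-term minus adult differences of DUSP4, MAPK6 and MAPK8 are tested, since these ages were not used to name them. For DUSP1, premature minus newborn was -2.25 (SE 0.49, 95% interval -3.25 to -1.25), with -2.33 to -2.14 over the alternative settings and -2.58 to -2.07 with 1 array left out. The naming of DUSP1 used the untreated premature mean and favours a low one, so this difference is a description. Each of these ages filled a slide of its own, so age and slide cannot be told apart in it. In the same comparison 11.7% of all genes were called. DUSP4 was 0.72 higher in the premature fetus than in the newborn (SE 0.47), and its groups did not overlap. For MAPK6, premature minus newborn was -0.07 (SE 0.21), and for MAPK8 it was 0.45 (SE 0.19).

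Between the near-term fetus and the adult, DUSP1 was lower and MAPK6 higher in the untreated fetus, both without overlap of their groups. For DUSP1, near-term minus adult was -1.17 (SE 0.49, 95% interval -2.17 to -0.18), as a description, and for MAPK6 it was 0.70 (SE 0.21, 0.28 to 1.12, adjusted p = 0.00635). DUSP4 was 0.88 higher in the fetus (SE 0.47, adjusted p = 0.125) and MAPK8 0.08 higher (SE 0.19, adjusted p = 0.746), and neither passed. Of all genes, 44.4% were called in this comparison, and of the 3 members tested 1 was. The DUSP1 difference was -0.71 without the dim near-term untreated replicate 4, and with slide as a block it was -0.71 as well. That block sets the same array aside, as the only untreated one on its slide, so the 2 values are not separate checks. The MAPK6 call was kept under 11 of 15 alternative settings, and was lost when arrays were scaled to their median (0.18) and without adult untreated replicate 3 (0.54, under 1.5-fold), while DUSP4 passed without adult PHE replicate 2 (adjusted p = 0.0432), and the sign for MAPK8 turned with median scaling (-0.44) and quantile normalization (-0.78). With normexp DUSP4 (1.69, adjusted p = 0.00125) and MAPK8 (1.15, adjusted p = 0.000451) passed and MAPK6 (0.36) did not. Normexp added an offset of 50 to each intensity, while the dim near-term untreated replicate 4 had a 75th percentile of 124. The part of that offset was not tested.

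MAPK6 and MAPK8 moved together over the 32 arrays, and so did each of them with DUSP4, while DUSP1 followed none of the others closely. Pearson's r was 0.75 between MAPK6 and MAPK8 (Spearman's rho 0.56), 0.66 between DUSP4 and MAPK8 (rho 0.61) and 0.62 between DUSP4 and MAPK6 (rho 0.56), and it was 0.15 to 0.22 between DUSP1 and each of the other genes (rho 0.10 to 0.21). The 3 higher values came from the 16 premature and newborn arrays, where r was 0.86, 0.92 and 0.89 in the same order, and over the 16 near-term and adult arrays they were 0.24, 0.13 and 0.29. On these 2 sets of arrays DUSP1 had 0.51 and -0.07 with MAPK6, and 0.21 to 0.31 with DUSP4 and MAPK8. With the 8 group means removed, r was 0.33 between MAPK6 and MAPK8, -0.04 between DUSP4 and MAPK8, and 0.03 between DUSP4 and MAPK6. The arrays share treatment, age and scan day, and DUSP4, MAPK6 and MAPK8 were named through the same ages, so these values are descriptions with no p.

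For each gene, the 3 genes of 1705 named candidates with the highest r over the 32 arrays are given, again as a description. DUSP1 was most like CYR61, a secreted matrix protein (r 0.87, rho 0.84), ATF3, a stress-induced transcription factor (r 0.86, rho 0.86), and FOS, a subunit of the AP-1 transcription factor (r 0.86, rho 0.86). CYR61 shared with DUSP1 a PHE effect near 0 in the newborn, at -0.29, whereas ATF3 had 2.95 and FOS 2.30 there, the latter not called. Nearest to DUSP4 were UCN, which encodes the peptide urocortin (r 0.91, rho 0.88), ELL, an elongation factor of RNA polymerase II (r 0.90, rho 0.84), and HMGA1, an architectural chromatin protein (r 0.90, rho 0.91). Nearest to MAPK6 were LRRC8C, a subunit of volume-regulated anion channels (r 0.92, rho 0.82), ZNF706 (r 0.88, rho 0.72) and RDH10, a retinol dehydrogenase (r 0.86, rho 0.77). Nearest to MAPK8 were ZFYVE16, an endosomal protein (r 0.87, rho 0.80), UGCG, the glucosylceramide synthase (r 0.86, rho 0.80), and PELI1, a ubiquitin ligase (r 0.85, rho 0.78). On the 16 premature and newborn arrays, r with CYR61, ATF3 and FOS was 0.79 to 0.83 for DUSP1, and on the 16 near-term and adult arrays it was 0.89 to 0.95. For DUSP4 the ranges over its genes were 0.94 to 0.97 and 0.79 to 0.81, for MAPK6 0.91 to 0.96 and 0.43 to 0.71, and for MAPK8 0.92 to 0.93 and 0.58 to 0.63. All 12 of these genes were themselves named through the lists of altered genes.

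**Figure D4:**
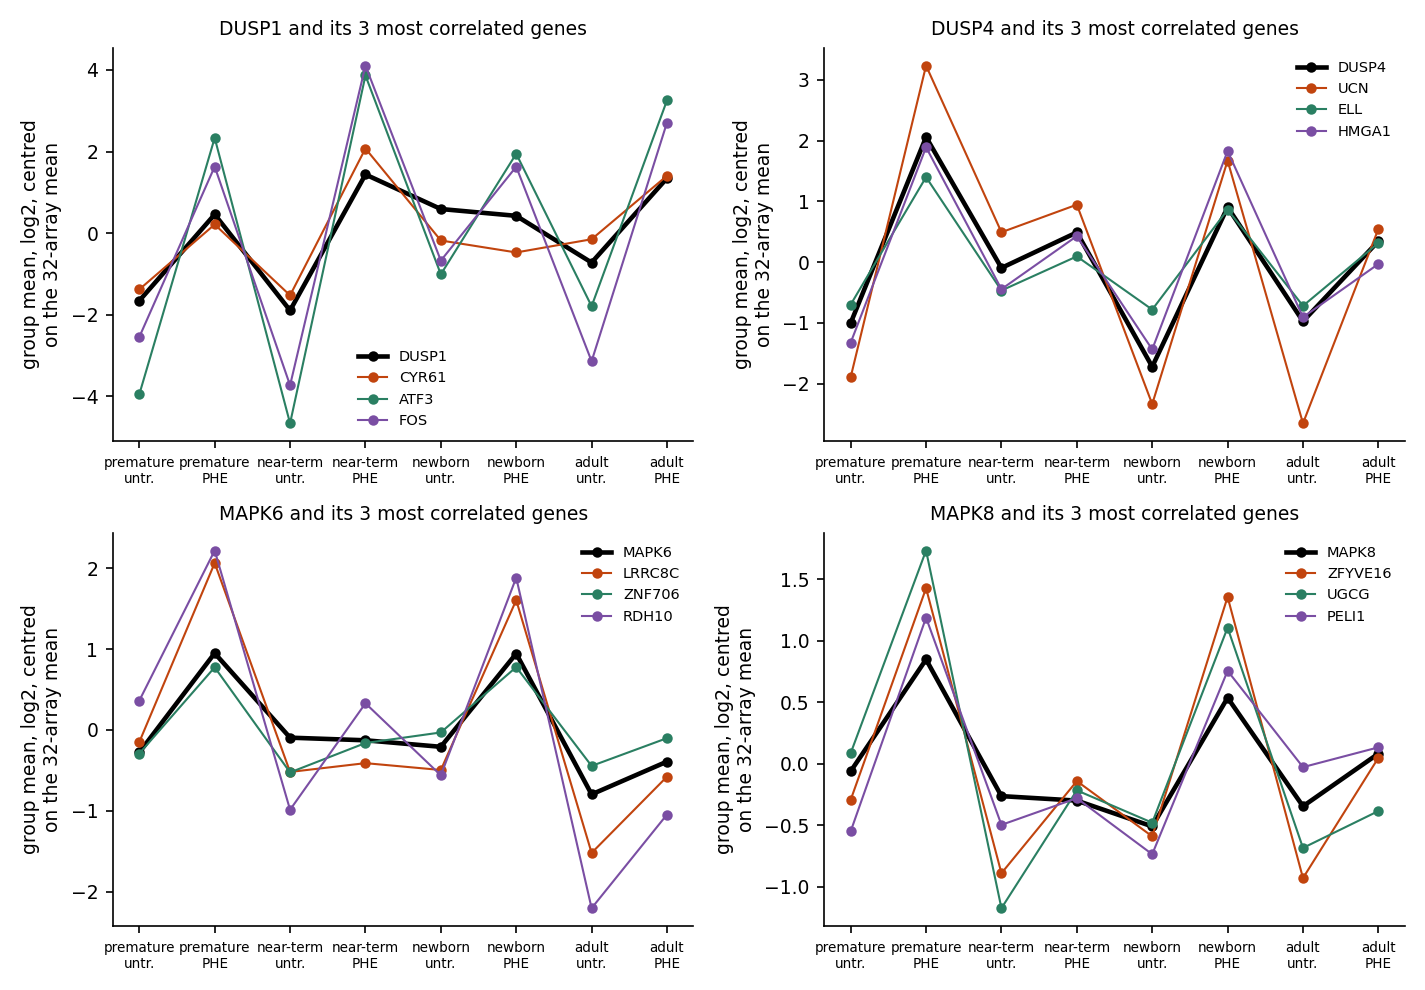
Group means of each gene and of the 3 genes most correlated with it, on the log2 scale and centred on the mean of the 32 arrays; the 8 groups run from left to right and lines only join the means of 1 gene. DUSP1 and CYR61 are alike with and without PHE in the newborn lamb, while DUSP4, MAPK6 and MAPK8 and the genes drawn with them peak in the premature fetus and the newborn lamb with PHE.

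Of 121 genes on 11 lists of the MAP kinase relay, its phosphatases, its inhibitors and its targets, 32 had a named probe, and no gene of the RAS and adaptor list (0 of 8) or of the Alpha1AR list (0 of 3) did. In the premature fetus, 23 of 32 listed genes tested were called higher with PHE and 4 lower (8.85% and 8.79% of all genes), with a median effect of 1.63 against -0.09 over all genes tested. For the near-term fetus they were 21 higher and 3 lower of 31 (17.4% and 18.8% of all genes, median 1.61 against -0.09), in the newborn lamb 16 and 1 of 30 (5.63% and 5.66%, 1.21 against -0.08), and in the adult 13 and 1 of 31 (2.81% and 1.00%, 1.03 against -0.05). All but 3 of the 32 probes used carry a name only because the gene was on a list of altered genes, so these counts are not independent of the PHE effect and nothing is read from them. Among the other MAP kinases, MAPK12 had 1.09 in the near-term fetus and between -0.26 and -0.02 at the other ages. MAPK14, a kinase that DUSP1 is known to inactivate, was called lower with PHE at all 4 ages, at -1.22, -0.80, -1.08 and -0.77 in premature, near-term, newborn and adult arteries. Its sign was the same under the 3 alternative scalings, under none of which it was called in the adult. Beside DUSP1 and DUSP4, the MAP kinase phosphatases with a probe were DUSP5, a nuclear phosphatase, and DUSP6, a cytoplasmic one. DUSP5 was called higher at all 4 ages, at 6.31, 4.06, 7.0 and 7.81, though its near-term call was kept under only 2 of 3 alternative scalings. Its probe was above background on only 18 of 32 arrays and its effects were 3.46, 0.89, 4.88 and 4.76 with normexp background correction, so their size is not settled. DUSP6 had -0.12, 0.00, -1.02 and -0.60, none of them called. DUSP14, of the other dual specificity phosphatases, had 1.33, -0.24, 0.91 and 0.53, with a call in the premature fetus.

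Upstream of the MAP kinases, MAP2K3, which phosphorylates MAPK14, had 1.92, 0.96, 1.55 and 0.78 in premature, near-term, newborn and adult arteries, with calls at the first 3 ages. MAP3K2 had 2.09, 0.43, 2.03 and 1.56 and was called at all ages but the near-term. MAP3K14 had 0.77, 1.69 and 0.11 where tested, with a call in the near-term fetus. MAP3K6 had -1.17, -0.81, -0.83 and -0.81 and was called lower in both fetuses. MAP3K13 had -1.64, -0.39, -0.94 and -0.28 and was called lower in the premature fetus. Downstream, MKNK2 had 1.41, 1.12, 1.26 and 0.96 and MAPKAPK2 1.37, 1.31, 0.53 and 0.17, called at 3 and 2 ages. Of the Sprouty inhibitors, SPRY2 was called higher at all 4 ages (2.16, 1.68, 1.65 and 1.03). SPRY1 had 1.40, 1.79, 0.71 and 1.17 and SPRY4 1.85, 3.20, 0.95 and 1.31, each called in both fetuses. SPRY3, tested in the premature fetus alone, had -1.23 and was not called. The scaffold LAMTOR3 had -0.77, -0.88, -0.42 and -0.15 and was called lower in both fetuses. Among the immediate early targets, which share with DUSP1 their rapid transcription, 10, 11, 8 and 9 of 11 were called higher at the 4 ages, beside 8.85%, 17.4%, 5.63% and 2.81% of all genes. The 6 with the largest effect at any age are given, and the others are in the plot of the listed genes: ATF3 had 6.28, 8.52, 2.95 and 5.04, FOS 4.18, 7.83, 2.30 and 5.85, EGR1 3.92, 6.15, 1.77 and 5.55, EGR3 4.90, 5.59, 3.83 and 6.09, JUNB 5.92, 6.03, 4.04 and 4.72, and MYC 4.22, 4.17, 4.05 and 5.06. Of the calls starred in the plot of the listed genes, those of SPRY1 and MAPK8 in the premature fetus were lost under all 3 alternative scalings. So was that of MAPK14 in the adult. Those of LAMTOR3 in the premature fetus, MAP2K3 in the near-term fetus and MAPK8 in the newborn were lost under 2, while SPRY3 in the premature fetus was called under 2. With normexp background correction the effect on SPRY4 was 0.60 in the premature and 0.20 in the near-term fetus, that on MKNK2 was 0.08 in the premature fetus, and in the near-term fetus MAPK12 had 0.19 and MAPKAPK2 0.28. Among other effects that fell with this correction were those on SPRY1 (0.65) and SPRY2 (0.71) in the near-term fetus. In the premature fetus SPRY1 had 0.69, MAPKAPK2 0.67 and DUSP14 0.69 with this correction. With it the sign of a called effect turned in the near-term fetus for MAP3K14 (-0.82) and MKNK2 (-0.15).

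**Figure D5:**
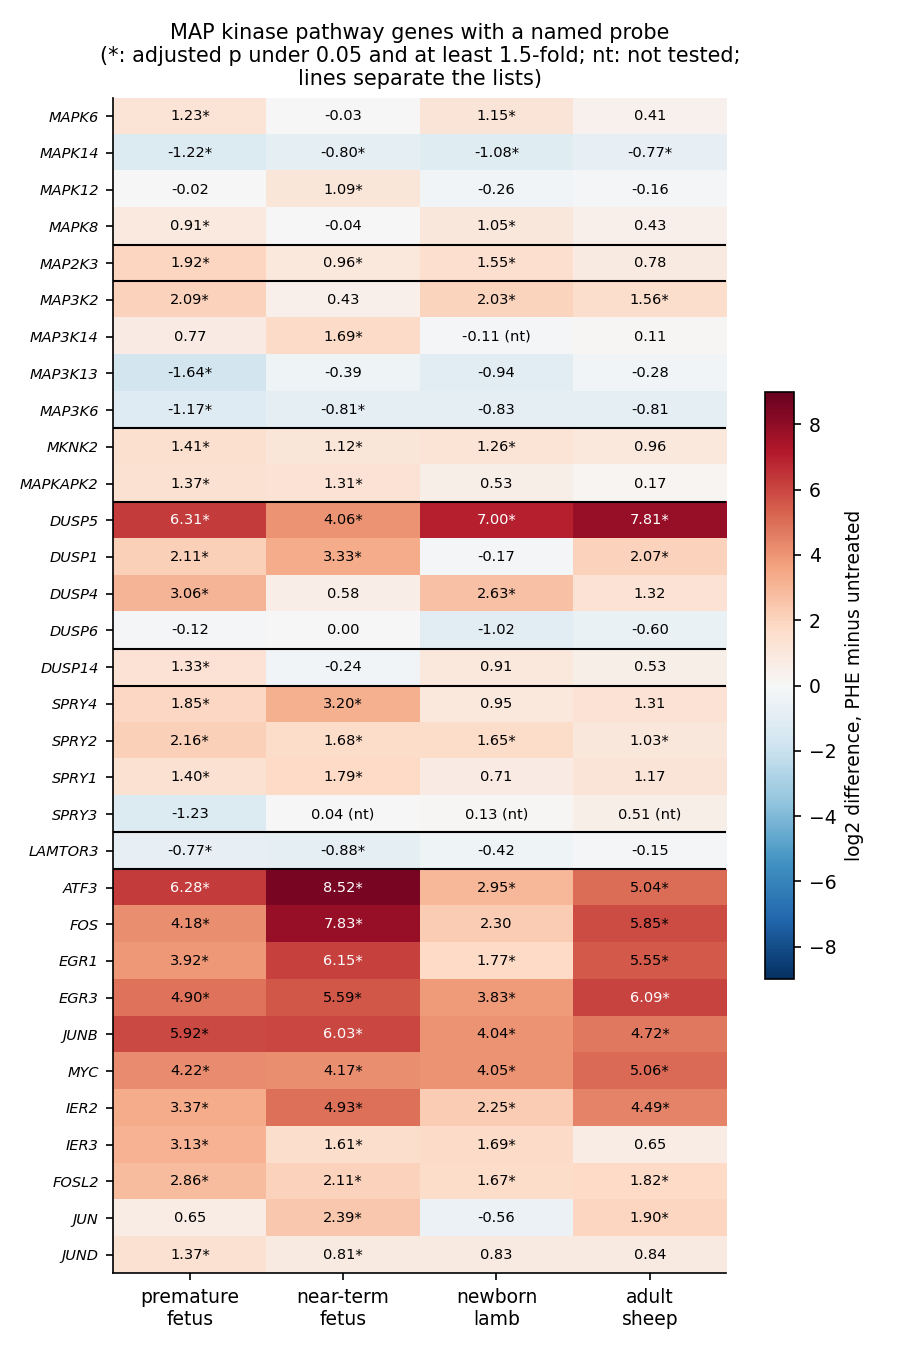
Log2 difference of PHE minus untreated at each age for the 32 listed genes with a named probe, in the order of their lists; red is higher with PHE, blue is lower, a star marks a call and nt a gene not tested. A call at an age through which a probe was named is not independent of the naming; MAPK14 is blue throughout.

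Markers of the cell types in the segments were read beside the 4 genes. Of 8 smooth muscle markers 1 had a named probe, CNN1, the actin-binding protein calponin, which was well above background on 32 of 32 arrays and was not called with PHE at any age. Of 8 endothelial markers 1 had a probe, TIE1, above background on 17 arrays and called higher with PHE in the near-term fetus, where its untreated arrays were not all above background, so no size is given. For the 2 of 8 red blood cell markers with a probe, HBA1 and HBB, of which HBA1 had the brighter probe, the summed level as a multiple of the 75th percentile went from a mean of 40.9 to 11.7 in the premature fetus, 16.2 to 3.98 in the near-term fetus, 29.6 to 15.4 in the newborn and 5.87 to 3.22 in the adult. On single premature arrays it was 40.9, 50.9, 27.7 and 44.0 untreated and 10.9, 11.8, 12.5 and 11.8 with PHE, and on near-term arrays 12.6, 13.9, 23.3 and 15.1 and 7.58, 1.51, 4.74 and 2.11. On newborn arrays it was 31.7, 25.4, 37.9 and 23.7 untreated and 15.3, 16.7, 16.8 and 12.8 with PHE, and on adult arrays 5.77, 2.60, 9.36 and 5.76 and 2.61, 2.99, 4.16 and 3.12. The groups did not overlap in either fetus or in the newborn, which includes the ages at which DUSP4, MAPK6 and MAPK8 were higher with PHE, and HBA1 was called lower in both fetuses (-1.96 and -2.38). The sum follows HBA1: HBB, not called at any age, had -0.71 and -1.10 in the fetuses and 0.09 in the newborn, and was not above background on all adult arrays.

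For the 5 of 8 leukocyte markers with a probe, CD14, CD68, CD3E, ITGAM and LCP1, the summed level went from 2.08 to 4.12 in the premature fetus, 2.92 to 5.11 in the newborn, 0.60 to 1.38 in the adult and 3.03 to 1.86 in the near-term fetus, with CD14 the brightest probe on nearly all arrays and ITGAM above background on only 3. CD68 was called higher with PHE at all ages but the premature (0.99, 1.45 and 1.24), including the near-term fetus, where the sum was lower, and LCP1 in the premature fetus, where its untreated arrays were not all above background. In the premature fetus, an age at which all 4 genes were higher with PHE, the leukocyte sum ran from 1.93 to 2.19 untreated and from 3.17 to 5.55 with PHE, and in the newborn from 1.00 to 5.43 and from 3.93 to 6.5. In the adult the leukocyte sum was 0.568 on PHE replicate 2, the adult array with the lowest DUSP4. It was 1.21 to 2.09 on the other adult PHE arrays and 0.361 to 0.934 on untreated adult arrays. The fibroblast sum (COL1A1, COL1A2, COL3A1 and DCN, 4 of 7) went from 91.2 to 78.5, 38.9 to 74.7, 33.7 to 56.1 and 11 to 11.1 in premature, near-term, newborn and adult arteries. DCN, not called at any age, was the largest part of this sum except on 3 near-term PHE arrays, where COL1A1 was, while COL1A1, COL1A2 and COL3A1 had 1.46, 1.89 (called) and 1.39 in the premature and 4.22, 4.22 and 3.66, all called, in the near-term fetus. The brain sum (GFAP, MBP and AQP4, 3 of 7) went from 0.253 to 0.136, 0.772 to 0.275, 0.106 to 0.123 and 0.111 to 0.0653, and the fat sum (FABP4, LEP and LPL, 3 of 6) from 0.0992 to 0.0998, 0.493 to 0.245, 0.762 to 0.715 and 0.506 to 0.245. Single arrays carry some of these sums: near-term untreated replicate 4 had a brain sum of 2.33 beside 0.154 to 0.362 on the others, and adult untreated replicate 3 a fat sum of 1.5 beside 0.102 to 0.212. Likewise, adult PHE replicate 4 had a fibroblast sum of 23.2 beside 5.67 to 7.91 on the other adult PHE arrays. Between untreated premature and newborn arteries, where DUSP1 differed, CNN1 went from 33.9 to 124 and the fibroblast sum from 91.2 to 33.7, and between untreated near-term and adult arteries CNN1 went from 260 to 417 and the fibroblast sum from 38.9 to 11. The part of these marker levels in the results for DUSP1, DUSP4, MAPK6 and MAPK8 was not tested.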

How the data were processed

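The 32 arrays were 1-colour Agilent arrays of RNA from sheep MCA segments. The authors deposited processed intensity for each spot, background subtracted and detrended within the array by Agilent Feature Extraction 9.5.3.1 and not scaled between arrays. The deposited value table equalled these values on 32 of 32 arrays. The members and gene lists were chosen with earlier results of these data known.

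Of 15008 probes, 646 carried a symbol in the array files, 520 were named through reference accessions, and 1880 by matching scaled group means to the authors' list of altered genes, whose values served for names only. Single matches were found for 1154 of 1269 listed genes in the premature fetus, 1012 of 1016 in the newborn, 437 of 438 in the adult, and 1101 of 1106 in the near-term fetus, there without PHE replicate 1 (5 with it). Against a list shifted out of step they numbered 86, 2, 0 and 5. The name was the same for 56 of 64 matched probes that also had a reference name and for 91 of 156 with a file symbol. MAPK8 had 2 candidate probes in the premature fetus and 1 in the newborn.

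Intensities were put on the log2 scale and scaled to the 75th percentile of each array. Genes took their brightest probe and were tested where some group in the comparison was well above background on each of its 4 arrays. limma 3.58.1 in R 4.3.3 fitted 8 group means to 32 arrays, with p-values adjusted over the genes tested by the Benjamini-Hochberg method. Exact permutation tests were two-sided, with 0.0286 the smallest p they can give. Python 3.11.15, numpy 2.4.6, pandas 2.3.3 and matplotlib 3.10.9 served for the rest. The fit was tested on simulated data in which each gene had the same spread in all groups and arrays were not paired. That test therefore does not cover the uneven spread of the near-term arrays or the likeness of paired arrays. The number of arrays, 4 a group, limits the precision.

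The genes named are the 4 members, the listed genes with a tested probe (the 6 with the largest effects where a list had more), the 3 genes most correlated with each member, and the markers; 3 genes of the planned lists are not reported here. Replicate numbers were checked as pairs: arrays of 1 number were alike, once group means were removed, in premature arteries (r from 0.379 to 0.520) and newborn ones (0.478 to 0.580), and not in the near-term fetus (-0.19 to 0.41) or the adult (-0.13 to 0.04). The alternatives changed the background correction, the scaling, the filter, the probes, the arrays fitted, their weights, the block (replicate number or slide) and the test, and left out each array in turn. No probe, promoter or protein sequence was in the files.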

Additional observations from a re-analysis of the deposited data

Results flagged for a closer look

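4 of the 32 combinations of gene and group held an array that lay far from the other arrays of its group, where chance gives about 1 in 20. DUSP1 read 2.09 on premature PHE replicate 2, below the other premature PHE arrays. It read -1.20 on near-term untreated replicate 4, the dimmest array. MAPK6 read 1.40 on near-term untreated replicate 3, above the other near-term untreated arrays, and 1.61 on newborn PHE replicate 2, below the other newborn PHE arrays. In each, the gap to the nearest array exceeded 0.829 of the range of the group.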

How the results depend on the processing

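Of 232 values of the PHE effects under alternative settings, 216 kept their direction and their side of the threshold (for descriptions, stayed within 1 SD), as did 116 of 121 differences of the effect, 92 of 101 untreated differences and 108 of 130 counts (within 1.5 times). With 1 array left out the numbers were 503 of 512, 278 of 288, 253 of 256 and 254 of 256. Leaving out an array of an age not compared cannot change the size of an effect or difference. Settings that change only the filter or the test cannot change it either. Such values mostly count as kept, so these shares overstate how stable the results are. The causes of the changes below were not tested.

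With normexp background correction the premature effect was 1.93 for DUSP4 and 0.19 for MAPK8, the newborn effect 1.64 for DUSP4 and 0.73 for MAPK8, and the near-term effect -0.45 for DUSP4, 0.32 for MAPK6 and -1.05 for MAPK8, the last past the threshold. So was the near-term minus adult difference of the MAPK8 effect, -1.41, and the untreated near-term minus adult difference of DUSP4 (1.69) and MAPK8 (1.15), while that of MAPK6 (0.36) no longer passed. The premature minus newborn difference of the MAPK8 effect was -0.54. Normexp, run with an offset of 50, gave 1152 calls in the premature fetus and 620 in the newborn. Its median effect over all genes was -0.42 in the near-term fetus, where 17.1% of 4164 calls were higher with PHE, and -0.21 in the premature fetus.

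Scaling to the median of the array shifted the median of all genes to -0.21 for premature, -0.24 for near-term and -0.12 for adult arteries, gave 1143 premature and 635 newborn calls, and turned the premature minus newborn difference of the MAPK6 effect to -0.034. It took the untreated near-term minus adult difference to 0.18 for MAPK6, not past the threshold, and to -0.44 for MAPK8. Calls higher with PHE in the newborn were 67.9% with it and 61.3% with normexp, against 49.9%. Quantile normalization turned the near-term effect on MAPK6 to 0.094 and the untreated near-term minus adult difference of MAPK8 to -0.78, and its median over all genes was -0.13 in the premature fetus and -0.10 in the newborn.

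With slide as a block the near-term effect was 4.72 for DUSP1, -0.54 for DUSP4, 0.063 for MAPK6 and 0.16 for MAPK8, and the difference of the DUSP1 effect was -2.60 for premature minus near-term and 2.65 for near-term minus adult. Each of these near-term effects is against the dim untreated replicate 4 alone. This block cannot compare untreated premature with newborn arteries. With the replicate number as a block, the pairing of arrays, no call on the 4 genes changed. It gave 1940, 3760, 1232 and 474 calls in premature, near-term, newborn and adult arteries, and was not run for untreated levels.

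Array weights took the near-term effect on MAPK8 to 0.24, the adult effect on DUSP4 to 1.55 and past the threshold, and the untreated near-term minus adult difference to 0.66 for MAPK6, no longer past it, and to -0.040 for MAPK8. They gave 2788, 1793 and 831 calls in the premature fetus, newborn and adult.

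Fitted to the arrays of the ages compared alone, the calls were 2882 for premature, 273 for near-term (88.6% of them higher), 1803 for newborn and 155 for adult arteries, with 12 listed genes among the near-term calls. With the test of the study's methods, unadjusted, the calls were 2765, 1838, 1815 and 597. Adjusted, the same test did not call untreated near-term minus adult MAPK6 (0.70), and called 13 near-term and 9 adult genes, of which 2 and 0 were listed. It was not run for differences of the effect.

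Settings added after seeing the data left out both dim near-term arrays. The near-term effect was then 1.12 for DUSP4, not past the threshold, and for MAPK8 0.10, also with near-term arrays alone (0.10), and the calls were 537 in the adult and, near-term arrays alone, 1482.

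With each array left out in turn, the near-term effect ran from 0.30 to 0.96 for DUSP4, from -0.18 to 0.082 for MAPK6 and from -0.26 to 0.17 for MAPK8, the newborn effect on DUSP1 from -0.50 to 0.014, and the adult effect on DUSP4 from 0.90 to 2.00. The premature minus newborn difference of the MAPK6 effect ran from -0.090 to 0.20, and the premature minus adult difference for DUSP1 from -0.17 to 0.37. The untreated near-term minus adult difference ran from 0.51 to 1.08 for DUSP4, 0.54 to 0.82 for MAPK6 and -0.013 to 0.18 for MAPK8. Adult calls ran from 226 without adult PHE replicate 1 to 549 without adult PHE replicate 2. DUSP4 on newborn untreated replicate 4 was not above background, which limits its newborn effect.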
